A study of Zea mays with 48 samples.

Results

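Genes bound by ZmCCA1 in the inbred Mo17 and again in a hybrid, but not in the inbred B73, numbered 233 of the 4321 genes with an assigned peak in any genotype. They were chosen from the peak lists alone, as genes named in the Mo17 list and in the list of at least 1 of the reciprocal F1 hybrids and not named in the B73 list. Of these genes, 48 (20.6%) were named in both hybrids, 118 (50.6%) in BM only and 67 (28.8%) in MB only. Their peaks numbered 199 in BM, 123 in MB and 259 in Mo17, or 581 of the 10136 deposited peaks.

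Aerial tissues of maize seedlings were taken 5 days after planting at 3 times of day, ZT3, ZT9 and ZT15 (hours after dawn), and ZmCCA1 binding was mapped in them by ChIP-seq. BM is the cross of a B73 mother with a Mo17 father, MB is the cross of a Mo17 mother with a B73 father, and Mo17 and B73 are the parental inbreds, none of them treated. In ChIP-seq, protein-bound DNA is recovered with an antibody and sequenced beside the unenriched input, and the value of a peak is log2(ChIP/Input), in which 1 unit is a doubling of the enrichment. The deposited lists hold a single such value for each peak and time point although 2 biological replicates were sequenced, so a value comes without an error, the reads behind it cannot be counted, and no test between conditions could be made. A gene that is missing from a list had no peak called there, which is not the same as no binding. The antibody was raised against the MYB domain, which ZmCCA1b has and the truncated form of ZmCCA1a lacks, and the labels name ZmCCA1b as its target. By the study's account it could also recognise a full-length ZmCCA1a that holds this domain. In the hybrids the deposited values do not tell which parental allele was bound.

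CCA1 is a MYB transcription factor of the plant circadian clock. In Arabidopsis it is made around dawn and binds the evening element (EE) and the CCA1-binding site (CBS) in genes of the clock and of its outputs, of which several peak in the afternoon or evening. GIGANTEA, a clock-associated protein that acts in light signalling and flowering, is a known target there, and its maize copies gi1 and gi2 are both among the 233 genes.

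The oligonucleotides that the study designed for gi1 and gi2 are shown because they are the sequences with which binding at these genes was assayed. The letters AAATATCT (EE) and AAAAATCT (CBS) were searched on both strands, and a match is in capitals.
gi1 ChIP-qPCR primer, forward: gaacttccatttcagccatcc
gi1 ChIP-qPCR primer, reverse: gaaataatcaaggtgacggg
gi2 ChIP-qPCR primer, forward: cagtgttgattacaggtgctc
gi2 ChIP-qPCR primer, reverse: gattctgacatgcttggtagc
gi1 gel shift probe: gcatcgcggaAAAAATCTttttctcgcc
gi1 gel shift probe, mutated: gcatcgcggaaaaaaGAGttttctcgcc

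The gi1 probe of 28 bases held 1 CBS on the printed strand and no EE, and none of the 4 primers held either motif. In the mutated probe the capitals mark the substituted bases T16G, C17A and T18G, counted from 1 at the 5′ end, and neither motif was left. These matches describe the oligonucleotides only, and their places within the peaks were not looked up here.

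A minority of the Mo17 genes that B73 lacked were named in a hybrid. Of 674 Mo17 genes absent from B73, 233 (34.6%, 95% Wilson interval 31.1% to 38.2%) were named in BM or MB, against 686 of 848 Mo17 genes also named in B73 (80.9%, 78.1% to 83.4%). BM had 166 of the 674 (24.6%) and MB had 115 (17.1%), against 595 (70.2%) and 509 (60.0%) of the 848. Both hybrids together held 48 of the 674 (7.12%), against 418 of the 848 (49.3%). The intervals cover counting error only, and the counts describe 1 list per genotype that also differ in size, with 2063 genes in BM, 1409 in MB, 1522 in Mo17 and 2521 in B73. Seen from the hybrids, the kept genes were 17.7% of the 940 BM genes absent from B73 and 20.5% of the 562 such MB genes. The rule fixed these memberships, and they are given as a description. With only peaks that reached 2 in every list, 148 genes met the rule, of which 54 were among the 233 and 94 were new, since B73 peaks were dropped too.

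The hybrid peak lay at the Mo17 position in most of the kept genes. In BM, 124 of 166 genes (74.7%, 67.6% to 80.7%) had a peak that overlapped a Mo17 peak of the same gene by at least 1 bp, against 506 of 595 genes also in B73 (85.0%, 82.0% to 87.7%). In MB, 85 of 115 genes (73.9%, 65.2% to 81.1%) did, against 410 of 509 (80.6%, 76.9% to 83.8%). In the other 42 BM genes the nearest Mo17 peak lay a median of 1259 bp away, between 73 and 23623 bp, and in the other 30 MB genes it lay 720 bp away, between 23 and 13182 bp. Tie-dyed2 (GRMZM2G553532), needed in maize for carbohydrate export from the leaf, was of this second kind, with its BM peak 3615 bp from its Mo17 peak.

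A B73 peak at the same place, under the name of another gene, was found at 4 kept genes. The rule left out genes named in B73, so a low share was largely fixed by it. A B73 peak overlapped 1 of 199 BM peaks (0.50%), 2 of 123 MB peaks (1.63%) and 4 of 259 Mo17 peaks (1.54%), against 42.9%, 47.1% and 45.2% of all peaks in the BM, MB and Mo17 lists, which include genes named in B73. The 4 genes concerned were GRMZM2G012232, GRMZM2G132465, GRMZM5G834285 and GRMZM2G109332, and in each the B73 peak was assigned to another gene. Widening the search to 1 kb gave 2.01% of BM, 2.44% of MB and 2.70% of Mo17 peaks.

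The kept peaks lay mostly inside genes. Of those in BM, MB and Mo17, 87.4%, 89.4% and 88.4% lay wholly inside the assigned gene, against 81.9%, 79.1% and 77.0% of all peaks with a gene in these lists. A further 4, 5 and 8 peaks crossed the gene start, and 6, 2 and 7 lay within 2 kb upstream. No peak in these lists was assigned to a gene that it followed, so downstream binding cannot be read from the assignments. Within the gene the kept peaks centred at a median of 41.8%, 41.8% and 39.9% of the gene's length from its start in BM, MB and Mo17, near the 38.7%, 39.5% and 40.2% of all peaks inside genes. The median peak width was 1002 bp in BM, 935 bp in MB and 994 bp in Mo17, and 1050.5, 980 and 994 bp over all peaks with a gene.

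The kept genes had a median length of 5967 bp, against 5047 bp for the 441 Mo17 genes found in no other list and 6513 bp for the 686 also in B73 and a hybrid. They were found on every chromosome, as 15.3% of all Mo17 targets, with the lowest share on chromosome 9 (15 of 159 Mo17 targets, 9.43%) and the highest on chromosome 8 (24 of 114, 21.1%). There were 8 pairs of kept genes that neighboured each other within 100 kb. In 3 of these pairs the genes were of the same class (both hybrids, BM only or MB only) and in 5 they were of different classes. Neighbours among all Mo17 targets were not counted, so these numbers are a description only.

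The time point of highest binding differed between the hybrids and Mo17 at the same genes. The phase of a gene was the time point with its highest value, each value being the highest over its peaks. ZT3 was the phase of 111 of 166 kept genes in BM (66.9%, 59.4% to 73.6%), and in Mo17 of 43 of the same genes (25.9%, 19.8% to 33.1%). Over all 761 genes shared by BM and Mo17 the shares at ZT3 were 70.8% in BM and 25.6% in Mo17, so the kept genes lay near the background. ZT9 was the phase of 48 genes in BM (28.9%) and of 93 in Mo17 (56.0%), with a background of 26.4% in BM and 51.6% in Mo17. ZT15 was the phase of 7 genes in BM (4.22%) and of 30 in Mo17 (18.1%), with a background of 2.76% and 22.7%.

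In MB the hybrid and Mo17 shares lay closer together. ZT3 was the phase of 56 of 115 kept genes in MB (48.7%, 39.8% to 57.7%) and of 25 of them in Mo17 (21.7%, 15.2% to 30.1%), with a background of 61.5% in MB and 23.1% in Mo17. The MB share lay below this background, which includes the kept genes, and near the 51.0% of all 1409 genes in the MB list. These differences were not tested. Among genes of MB and Mo17 also in B73 the share at ZT3 was 64.4% in MB (60.2% to 68.5%). ZT9 was the phase of 42 genes in MB (36.5%) and 66 in Mo17 (57.4%), with a background of 28.8% in MB and 52.5% in Mo17. ZT15 was the phase of 17 genes in MB (14.8%) and 24 in Mo17 (20.9%), with a background of 9.62% and 24.4%.

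**Figure D1:**
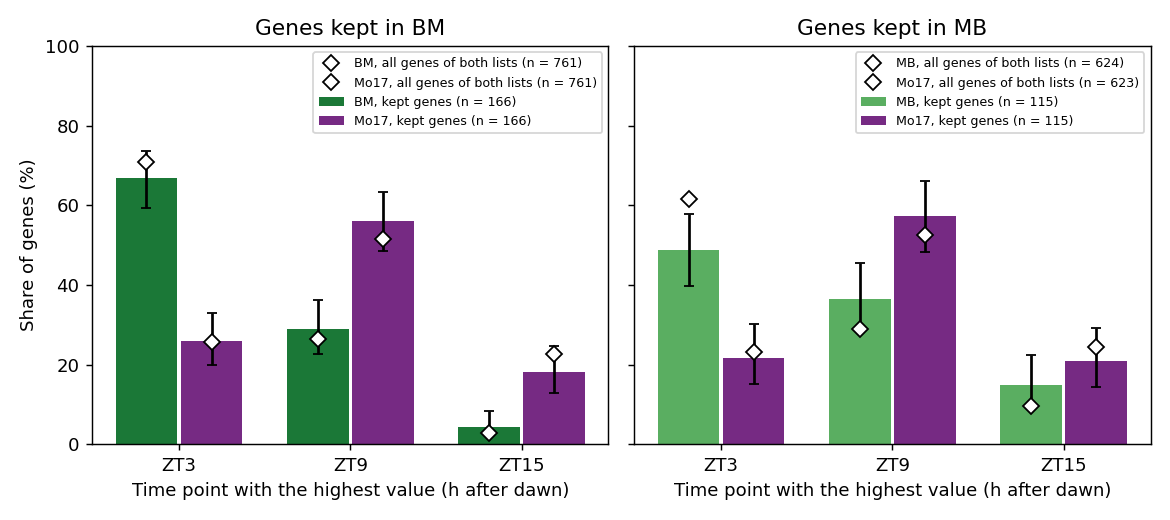
Share of kept genes (%, bars with 95% Wilson intervals for counting error) whose highest log2(ChIP/Input) was at ZT3, ZT9 or ZT15, in BM and Mo17 for the 166 genes kept in BM (left) and in MB and Mo17 for the 115 genes kept in MB (right). Diamonds give the share over all genes of both lists. The hybrid bars are tallest at ZT3 (66.9% in BM, 48.7% in MB) and the Mo17 bars at ZT9 (56.0% and 57.4%).

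Gene by gene, the most frequent combination in BM was ZT3 in the hybrid with ZT9 in Mo17, at 63 of 166 genes (38%), against a background of 36.8% of all genes in both lists. The phase was the same in BM and Mo17 at 57 genes (34.3%, background 32.7%), of which 30 were at ZT3, 26 at ZT9 and 1 at ZT15. In MB, 29 of 115 genes (25.2%, background 31%) had ZT3 in the hybrid with ZT9 in Mo17. The phase was the same in MB and Mo17 at 47 genes (40.9%, background 32.6%), 16 of them at ZT3, 27 at ZT9 and 4 at ZT15. Of the 48 genes kept in both hybrids, BM and MB had the same phase at 25 (52.1%, background 53.9% of all genes in both hybrid lists), of which 22 were at ZT3. At 13 of the 48 (27.1%, background 23.9%) the phase was ZT3 in BM and ZT9 in MB, and at 6 it was ZT9 in BM and ZT3 in MB.

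The shares were also counted by class of gene. In BM, ZT3 was the phase of 36 of 48 genes kept in both hybrids (75%, 61.2% to 85.1%) and of 75 of 118 kept in BM only (63.6%, 54.6% to 71.7%). In MB, it was the phase of 28 of 48 genes kept in both (58.3%, 44.3% to 71.2%) and of 28 of 67 kept in MB only (41.8%, 30.7% to 53.7%). The intervals of the classes overlap in both hybrids. In Mo17 the phase was ZT9 at 60.4% of genes kept in both, 54.2% of those in BM only, 55.2% of those in MB only and 51.2% of the 441 not kept, again with overlapping intervals. With each list centred on its median these Mo17 shares were 35.4%, 35.6%, 31.3% and 40.6%, and the share of kept genes at ZT3 was 45.8% in BM and 40.0% in MB, against 28.8% of all kept genes in Mo17. As deposited, without centring, ZT3 was the phase of 64.2% of BM genes and 51.0% of MB genes over the whole lists. The kept genes as deposited had 66.9% in BM and 48.7% in MB. Centred shares were not computed over the whole lists, so the centred shares of kept genes have no background here.

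Levels were compared where a hybrid peak overlapped the Mo17 peak of the same gene, which gave 128 pairs of peaks for BM and 87 for MB. At ZT3 the kept peaks had higher medians in the hybrids, with a value of 1.86 in BM and 1.32 in Mo17 over the 128 pairs and of 1.56 in MB and 1.19 in Mo17 over the 87 pairs. A Mo17 peak that overlapped a peak in each hybrid enters both sets of pairs, so the sets are not independent. The whole lists differ in level too. The median of all peaks was higher in BM than in Mo17 by 0.46 at ZT3 and differed by -0.25 at ZT9 and -0.34 at ZT15, and for MB these shifts were 0.18, -0.24 and -0.21.

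For BM minus Mo17 the median difference at ZT3 was 0.50 (quartiles 0.04 and 0.95), against 0.18 (-0.09 and 0.67) at 614 pairs of genes also in B73. Of the 128 kept pairs, 64 (50%) were higher in BM by at least 0.5, against a background of 34.8% of all pairs, and 10 (7.81%) were lower by as much, against 6.06%. After subtraction of the list shift, the median was 0.046 at the kept pairs and -0.27 at the pairs also in B73. At ZT9 the median difference was -0.23, with 29 pairs (22.7%) higher and 42 (32.8%) lower by at least 0.5, against backgrounds of 12% and 31.7%. At ZT15 it was -0.23, with 17 pairs (13.3%) higher and 46 (35.9%) lower, against 7.95% and 50.3%, and the pairs also in B73 had a median of -0.54. With each list centred on its median, the median differences of the kept pairs at ZT9 and ZT15 turned to 0.021 and 0.12. With only peaks that reached 2, where 94 of the 148 genes are other ones, the BM medians were 0.22 at ZT3, -0.44 at ZT9 and -0.56 at ZT15.

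For MB minus Mo17 the median difference at ZT3 was 0.28 (quartiles -0.49 and 0.67), against 0.10 (-0.14 and 0.40) at 513 pairs also in B73. Of the 87 kept pairs, 31 (35.6%) were higher in MB by at least 0.5 and 22 (25.3%) were lower, against backgrounds of 22.2% and 11.7%. At ZT9 the median difference was -0.17, with 16 pairs (18.4%) higher and 33 (37.9%) lower, against 8.83% and 38.7%. At ZT15 it was -0.33, with 18 pairs (20.7%) higher and 30 (34.5%) lower, against 8.67% and 32%. The quartiles at ZT15 were -0.89 and 0.33 for the kept pairs, against -0.58 and 0.01 for the pairs also in B73. With each list centred on its median, the differences became 0.099 at ZT3, 0.069 at ZT9 and -0.11 at ZT15, so that the one at ZT9 changed sign.

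**Figure D2:**
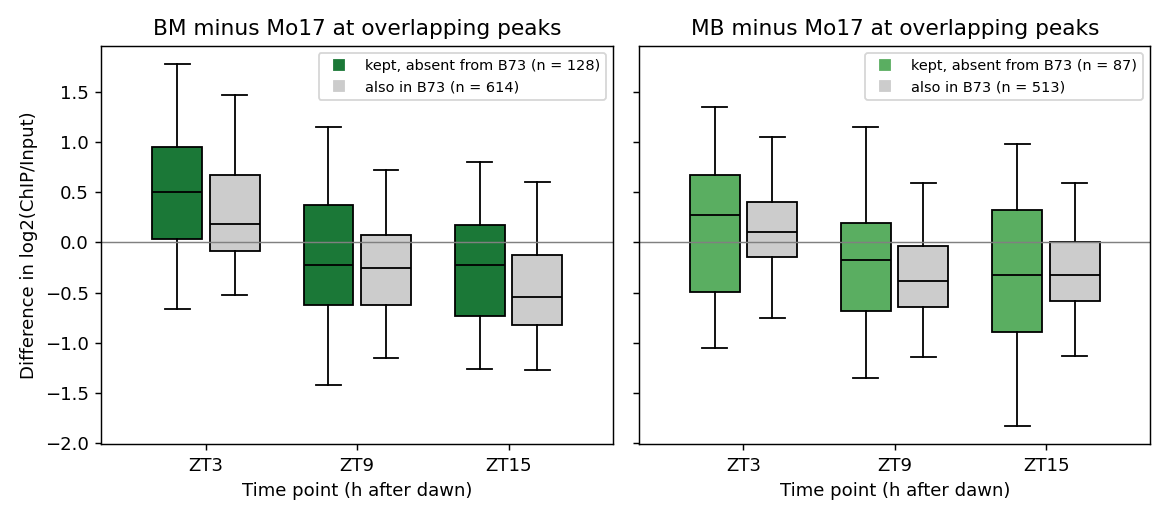
Difference in log2(ChIP/Input) between hybrid and Mo17 at overlapping peaks of the same gene, BM minus Mo17 (left) and MB minus Mo17 (right), for kept genes absent from B73 (green) and genes also in B73 (grey). Boxes give quartiles with the median as a line and whiskers the central 90% of pairs. The green medians at ZT3 are 0.50 for BM and 0.28 for MB, against 0.18 and 0.10 in grey, and the green boxes are the taller ones at every time point.

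Hybrid and Mo17 values at the overlapping peaks of kept genes were weakly related. Over the 128 BM pairs Spearman's rho between hybrid and Mo17 values was 0.11 at ZT3, -0.04 at ZT9 and 0.25 at ZT15. Over the 87 MB pairs rho at these times was 0.23, 0.19 and 0.05. These are correlations across peaks of the same few libraries, given as a description. They were not computed for the pairs also in B73, so a weak relation cannot be called particular to the kept genes.

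In Mo17 the kept genes had a lower median value than the genes also in B73 and a higher one than those not kept. The highest value over the day had a median of 1.92 (quartiles 1.68 and 2.11) at the 233 kept genes, 1.79 (1.58 and 2.04) at the 441 not kept and 2.11 (1.88 and 2.35) at the 686 also in B73 and a hybrid. It was 1.98 at genes kept in both hybrids, 1.89 at those in BM only and 1.94 at those in MB only. The kept genes spanned 0.92 to 2.60, and those also in B73 and a hybrid reached 5.54. At ZT3 alone the Mo17 median was 1.46 at genes kept in both hybrids, 1.20 in BM only, 1.08 in MB only and 0.97 at those not kept.

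The range over the day in Mo17 had its largest median at genes not kept and its smallest at genes also in B73. The highest minus the lowest time point in Mo17 had a median of 0.94 at genes kept in both hybrids, 1.09 at those in BM only, 1.10 at those in MB only, 1.43 at those not kept and 0.78 at those also in B73. At the same genes this range was larger in the hybrids than in Mo17, with a median of 1.31 in BM against 1.05 in Mo17 over 166 genes, and of 1.42 in MB against 1.06 in Mo17 over 115. Over the whole lists the range was 1.27 in BM, 1.18 in MB and 1.07 in Mo17. Because genes and peaks of 1 list share their libraries, none of these differences between classes was tested.

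**Figure D3:**
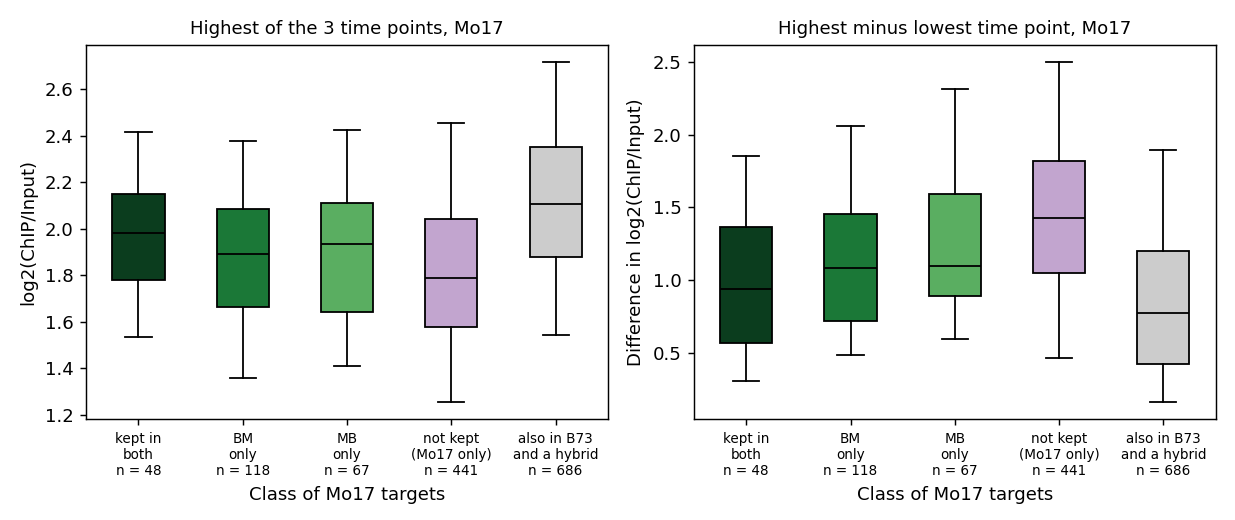
Highest log2(ChIP/Input) of the 3 time points (left) and highest minus lowest (right) in Mo17, for genes kept in both hybrids, in BM only, in MB only, not kept, and also in B73 and a hybrid. Boxes give quartiles with the median as a line and whiskers the central 90% of genes. The median highest value is 1.98, 1.89, 1.94, 1.79 and 2.11 in this order, and the median range 0.94, 1.09, 1.10, 1.43 and 0.78.

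The GIGANTEA copies had their highest Mo17 value at ZT9 and kept that phase in the hybrids, as genes. gi1 (GRMZM2G107101, chr8:21098977-21107262, minus strand, AGPv2 coordinates) was kept in BM only. Its BM peak at chr8:21100525-21103277 had 1.39 at ZT3, 1.95 at ZT9 and 0.50 at ZT15. Its BM peak at chr8:21105003-21105939 had 1.85, 1.71 and 0.93 at these times. Its Mo17 peak at chr8:21102387-21106200 had 0.76, 1.68 and 0.22 and overlapped both BM peaks. The BM peak nearer the gene start, centred 1791 bp into the gene, thus had its highest deposited value at ZT3 by a lead of 0.14 over ZT9. With the BM list centred on its median, this peak was highest at ZT9 (0.27, against 0.055 at ZT3). The other BM peak had its highest value at ZT9 by a lead of 0.56 over ZT3. At ZT3 the pair of BM peaks were above the Mo17 peak by 1.09 and 0.62, where the whole lists differ by 0.46.

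gi2 (GRMZM5G844173, chr3:9303333-9314353, plus strand) was kept in both hybrids, at different places in the gene. The BM peaks, centred 861 and 3196 bp from the gene start, had 1.12, 1.89 and 0.42 and 0.84, 1.99 and 0.63 at ZT3, ZT9 and ZT15. The MB peak, centred 6312 bp from the start, had 0.19, 1.31 and 0.35. The Mo17 peak, centred at 2210 bp, had 0.17, 2.54 and 0.33. ZT9 led ZT3 by 0.77 and 1.15 in the BM peaks and by 1.12 in the MB peak, against 2.37 in the Mo17 peak. The MB peak overlapped none of the others, its nearest Mo17 peak being 2571 bp away. At the BM and Mo17 peaks that overlapped, BM minus Mo17 was 0.67 at ZT3, -0.54 at ZT9 and 0.31 at ZT15.

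**Figure D4:**
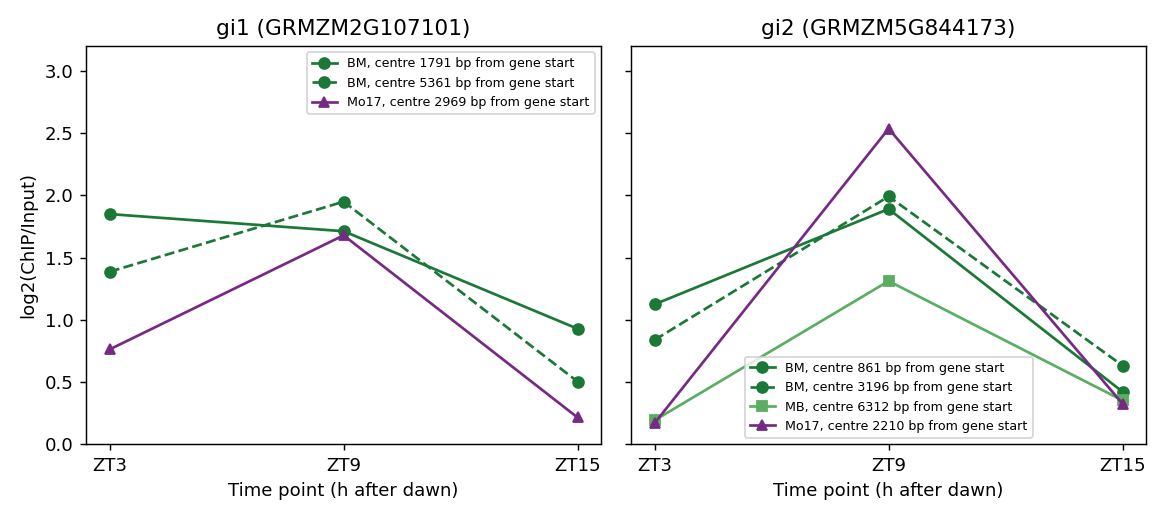
Value (log2 of ChIP over input) by time point for every peak assigned to gi1 (left) and gi2 (right) in BM, MB and Mo17, with the distance of the peak's centre from the gene start in the legend. Mo17 is highest at ZT9 in both genes (1.68 in gi1, 2.54 in gi2), and the gi1 BM peak at 1791 bp has 1.85 at ZT3 against 1.71 at ZT9. Values are as deposited, without centring of the lists.

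Of the 233 genes, 22 carry a gene name in RefSeq, and they were taken up for their names after the values were seen. For the 18 of them kept in BM, the phase was ZT3 in 12 and ZT9 in 6 in BM, against ZT3 in 2, ZT9 in 13 and ZT15 in 3 in Mo17. For the 7 kept in MB, it was ZT3 in 3, ZT9 in 3 and ZT15 in 1 in MB. The counts in Mo17 were the same, but CYP727A4, sbp17 and CPN60II had another phase there. Over all kept genes ZT3 was the phase of 66.9% in BM and 48.7% in MB. Over all genes shared with Mo17 it was the phase of 70.8% in BM and 61.5% in MB. The counts of named genes are given as a description.

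PYG7 (GRMZM5G809292), kept in BM only and required for photosystem I in Arabidopsis, had 2.71 at ZT3, 1.22 at ZT9 and 1.33 at ZT15 in BM, against 0.34, 2.33 and 1.55 in Mo17. Its difference of 2.37 at ZT3 was the highest of the 128 BM pairs. dxr (GRMZM2G056975), also kept in BM only and an enzyme of the plastid isoprenoid pathway, had 0.99, 1.79 and 1.60 in BM, against 0.60, 1.74 and 1.17 in Mo17, the same phase in both.

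Tie-dyed2, kept in BM only, had 1.52, 0.75 and -0.40 in BM, against 0.06, 0.79 and 1.68 in Mo17, at the separate places given above. LC-FACS (GRMZM2G339336), whose name stands for a long-chain fatty acyl-CoA synthetase, had 2.38, 1.05 and 0.84 in BM, against 1.30, 1.62 and 1.16 in Mo17. It was kept in BM only, with ZT3 as its phase in BM and ZT9 in Mo17.

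CDPK2 (GRMZM2G154489), a calcium-dependent protein kinase, had 1.62, 2.15 and 0.84 in BM, against 1.34, 2.02 and 0.72 in Mo17, with differences between 0.12 and 0.28. mek1 (GRMZM2G167856), a MAP kinase kinase, had 1.81, 0.71 and 0.74 in its BM peak, against 1.14, 1.66 and -0.14 in the Mo17 peak that it overlapped. PP2C29 (GRMZM2G053722), a protein phosphatase kept in MB only, had 1.09, 0.38 and -0.32 in MB, against 1.97, 1.63 and 0.98 in Mo17, at peaks 1127 bp apart. Its phase was ZT3 in both genotypes.

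bZIP108 (GRMZM2G033230), a basic leucine zipper factor kept in BM only, had 2.29, 1.14 and 1.27 in BM, against 1.45, 1.63 and 0.86 in Mo17. Med12b (GRMZM5G828278), of the Mediator complex and also kept in BM only, had 1.85, 1.07 and 0.81 in BM, against 1.19, 2.22 and 0.65 in Mo17. sbp17 (GRMZM2G156756), an SBP-box factor kept in MB only, had 2.67, 1.33 and 0.57 in MB, against 1.37, 1.82 and 0.92 in Mo17, at peaks 795 bp apart. In bZIP108, Med12b and sbp17 the hybrid phase was ZT3 and the Mo17 phase ZT9.

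mbd105 (GRMZM2G476933), which has a methyl-CpG-binding domain, was kept in both hybrids. It had 1.70, 0.67 and 0.23 in BM and 1.71, 1.80 and 1.40 in MB, against 1.79, 1.91 and 0.64 in Mo17. The BM peak lay 2032 bp from the Mo17 peak, and the MB peak overlapped it.

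CPN60II (GRMZM2G416120), a mitochondrial chaperonin, had a different phase in each genotype. Its values were 2.09, 0.40 and 1.07 in BM and 0.86, 2.12 and -0.14 in MB, against -0.08, 0.43 and 1.78 in Mo17, at peaks between 2 and 10 kb upstream. The BM peak overlapped the Mo17 peak, and the MB peak lay 23 bp from it. lon1 (GRMZM2G109560), a Lon protease kept in BM only, had 2.24 at ZT9 in BM as its highest value, against 1.65 at ZT3 in Mo17.

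HRGP (GRMZM2G099780), a hydroxyproline-rich glycoprotein of the cell wall, had 2.79 at ZT3 in the BM peak that overlapped its Mo17 peak, against 0.47 in Mo17, and 1.35 at ZT15, against 1.28 in Mo17. RIP1 (GRMZM2G052546) had 2.01, 1.26 and 0.70 in BM, against 0.43, 1.84 and 1.65 in Mo17. dba2 (GRMZM2G070360) had 2.22, 1.23 and 0.73 in BM, against 2.35, 1.78 and 1.27 in Mo17, so that its ZT3 phase was already that of Mo17. CHC2 (GRMZM5G804382) had 1.86 at ZT3 as its highest value in BM, against 1.65 at ZT9 in Mo17, with 206 bp between the nearest peaks. Emb12 (GRMZM2G119691) had 1.96 at ZT9 as its highest value in BM, against 1.95 at ZT15 in Mo17.

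In MB only, CYP727A4 (GRMZM2G022947), a cytochrome P450, had its highest value at ZT15 (1.90), against ZT3 (1.82) in Mo17, at peaks 147 bp apart. chr124 (GRMZM2G130739) had 1.28, 0.44 and 0.79 in MB, against 1.86, 1.23 and 1.17 in Mo17, lower in MB at each time point.

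At 30 of the 48 genes kept in both hybrids, peaks of BM, MB and Mo17 overlapped at a single locus. The medians at ZT3 were 1.93 in BM, 1.85 in MB and 1.53 in Mo17, at ZT9 1.44, 1.43 and 1.90, and at ZT15 1.04, 1.10 and 1.28. Between the reciprocal hybrids the median difference, BM minus MB, was 0.02 at ZT3, and at ZT9 and ZT15 it was 0.05 and 0.06. These differences are as deposited, and the whole lists differ in level too. The median of all peaks at ZT3 was 1.79 in BM and 1.52 in MB, and at ZT15 it was 0.82 and 0.95. At ZT9 it was 1.44 in each. BM and MB differed by at least 0.5 at 11 of the 30 loci at ZT3, 14 at ZT9 and 13 at ZT15. Over all 681 overlapping pairs of BM and MB peaks of the same gene, 36%, 35.4% and 41% differed by as much. BM was the higher at 15, 18 and 16 of the 30.

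**Figure D5:**
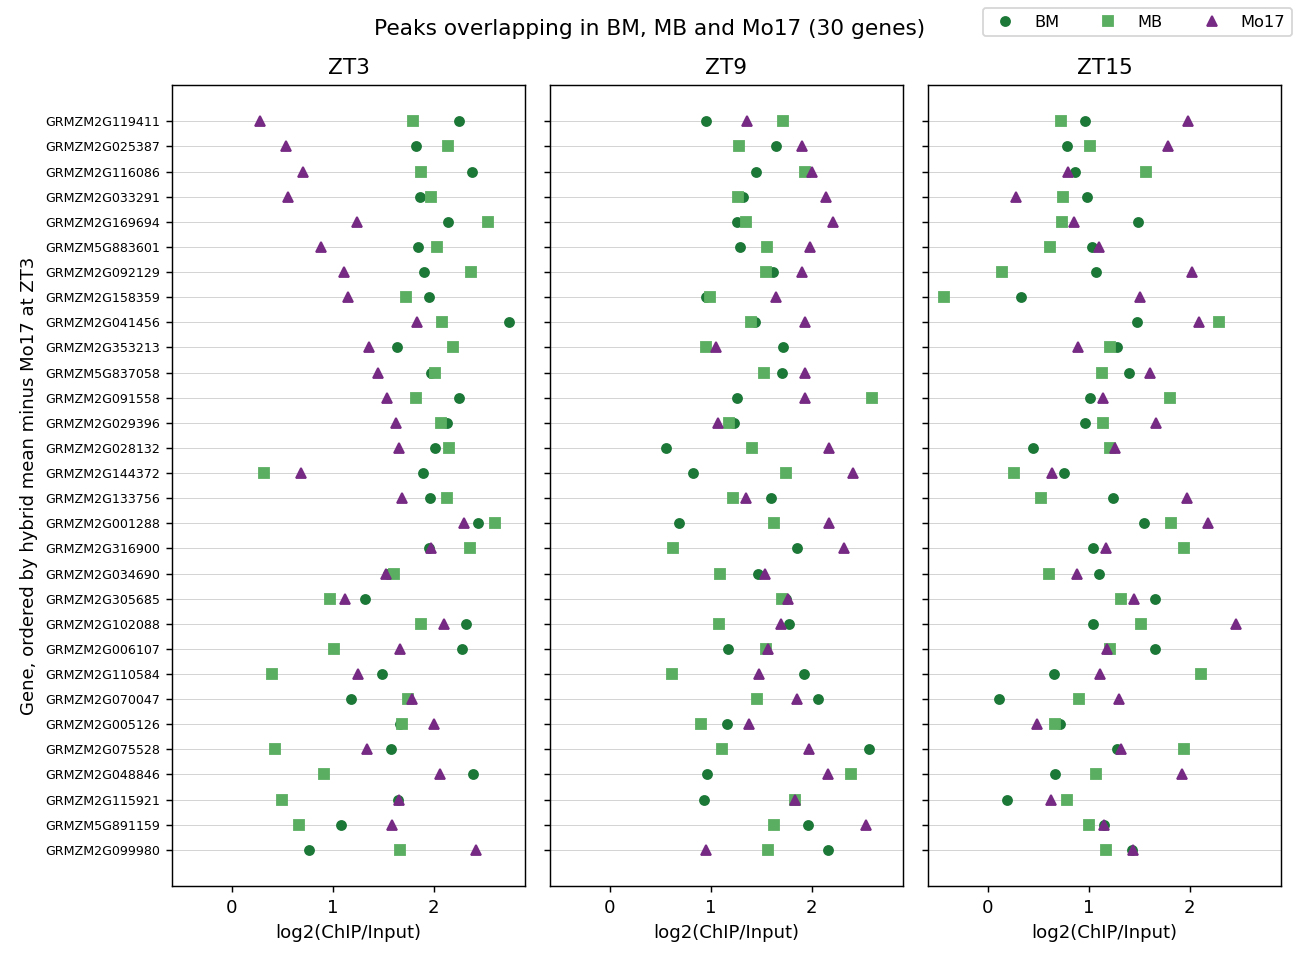
Value (log2 of ChIP over input, horizontal axis) by time point for the 30 loci whose peaks overlapped in BM, MB and Mo17, one line per gene, ordered by the mean of the hybrids minus Mo17 at ZT3. The topmost gene, GRMZM2G119411, has 2.25 in BM and 1.79 in MB against 0.28 in Mo17 at ZT3, and the lowest, GRMZM2G099980, has 0.76 and 1.67 against 2.42.

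The largest excess of both hybrids over Mo17 at ZT3 was at GRMZM2G119411 (chr9:25713532-25728055), with 2.25 in BM and 1.79 in MB, against 0.28 in Mo17. At ZT15 this locus had 0.96 in BM and 0.73 in MB, against 1.99 in Mo17. The next were GRMZM2G025387, with 1.83 in BM and 2.14 in MB against 0.53 in Mo17, and GRMZM2G116086, with 2.38 and 1.87 against 0.71. GRMZM2G033291 had 1.86 in BM and 1.97 in MB against 0.55 in Mo17, and GRMZM2G169694 had 2.14 and 2.54 against 1.24. At each of these genes Mo17 had a ZT9 value above that of both hybrids, other than at GRMZM2G119411, where MB had 1.71 against 1.36.

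At the other end, GRMZM2G099980 (chr3:229190166-229194335) had 0.76 in BM and 1.67 in MB at ZT3, against 2.42 in Mo17. It had 2.16 in BM and 1.57 in MB at ZT9, against 0.95 in Mo17. GRMZM5G891159 had 1.08 in BM and 0.66 in MB at ZT3, against 1.58 in Mo17, and its highest value was at ZT9 in all genotypes, with 1.97 in BM and 1.62 in MB against 2.54 in Mo17. That was also the highest Mo17 value of the 30 loci.

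At the next genes in this order the reciprocal hybrids parted. GRMZM2G115921 had 1.64 in BM and 0.50 in MB at ZT3, against 1.65 in Mo17. GRMZM2G048846 had 2.38 in BM and 0.91 in MB at ZT3, against 2.06 in Mo17, and at ZT9 0.96 in BM and 2.39 in MB, against 2.16 in Mo17. GRMZM2G075528 had 1.58 in BM and 0.43 in MB at ZT3, against 1.34 in Mo17. In these genes BM was near or above Mo17 at ZT3 and MB was below it.

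The other loci with high Mo17 values had no common pattern. GRMZM2G102088 had its highest Mo17 value at ZT15, with 1.04 in BM and 1.52 in MB against 2.46 in Mo17, and its hybrid phases were ZT3. GRMZM2G144372 had 0.82 in BM and 1.75 in MB at ZT9 against 2.41 in Mo17, and 1.89 in BM and 0.32 in MB at ZT3 against 0.69 in Mo17. GRMZM2G316900 had 1.85 in BM and 0.63 in MB at ZT9, against 2.32 in Mo17.

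Among genes kept in BM only, those with the highest Mo17 values were GRMZM2G411652, GRMZM2G082198 and GRMZM2G155312, and all had a ZT3 phase in BM. GRMZM2G411652 had gene values, each the highest over its peaks, of 2.72, 1.69 and 0.62 at ZT3, ZT9 and ZT15 in BM, against 1.73, 2.56 and 2.23 in Mo17. Its highest BM value came from a peak upstream of the gene without a Mo17 peak there, and at the overlapping peaks it had 1.86, 1.67 and 0.62 in BM, against 1.65, 2.03 and 1.35 in Mo17. GRMZM2G082198 had 2.71, 1.51 and 0.30 in BM, against 0.55, 1.54 and 2.48 in Mo17, at peaks 522 bp apart. GRMZM2G155312 had gene values of 2.61, 2.03 and 1.10 in BM, against 1.08, 2.47 and 1.29 in Mo17. Its BM peak nearest the Mo17 peak, 1975 bp away, had 2.61, 0.91 and 1.10. Its other BM peak, farther away, had 0.95, 2.03 and 0.45, and so was highest at ZT9 as in Mo17.

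Among genes kept in MB only, the highest Mo17 value was at GRMZM5G834285, with 1.72, 1.75 and 1.51 in MB, against 2.39, 2.60 and 2.00 in Mo17. This is a gene where a B73 peak, assigned to GRMZM5G820250, overlapped the kept peaks, with 1.80, 1.36 and 1.67. GRMZM2G409224 had gene values of 1.78, 1.41 and 0.69 in MB, against 0.61, 2.56 and -0.13 in Mo17. Its MB peak nearest the Mo17 peak, 122 bp away, had 0.63, 1.41 and 0.69, and so was highest at ZT9 as in Mo17. The value of 1.78 at ZT3 came from another MB peak, farther from the Mo17 peak. GRMZM2G020291 had 1.56, 0.41 and 0.29 in MB, against gene values of 2.50, 1.66 and 1.37 in Mo17, with ZT3 as its phase in both. The Mo17 peak that overlapped the MB peak had 2.07, 1.38 and 0.19.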

How the data were processed

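The deposited values are log2(ChIP/Input) per peak and time point, 12 columns from 48 libraries, which the authors made by aligning Mo17 reads to a Mo17 assembly guided by the B73 reference, B73 reads to B73 and hybrid reads to both, down-sampling libraries to a common depth, and calling peaks against input with MACS2 2.0.1 (per the labels). Peaks found in both replicates were merged over time into 1 list per genotype. How replicates became 1 value is not given in the sources used here. Hybrid and inbred reads were thus aligned differently, and overlapping peaks can have other bounds, both of which can move a log2 value.

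Members and gene lists were chosen with earlier results of these data known. Where a gene had several peaks the highest value at each time point was taken, pairs of peaks overlapped by at least 1 bp, and a difference of 0.5 was counted. Shares have Wilson intervals at 95%. No test was run, because values have no replicates. Named genes were those the study took up, the extremes of the shared loci and the highest Mo17 values of each class, plus genes named in RefSeq (143 of 233 matched, assembly Zm-B73-REFERENCE-NAM-5.0, names only). Of 18 genes the study took up, 2 were members and 9 were in no list. Planned lists by function could not be applied, because the reference held no descriptions. Alternatives were centring, a lead, thresholds, overlap rules and time points, plus, chosen after seeing the data, no B73 peak over the gene. The code was tested on simulated data (11 of 11 items recovered in 1000 genes). Python 3.11.15, numpy 2.4.6, pandas 2.3.3, scipy 1.17.1 and matplotlib 3.10.9 were used.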

Additional observations from a re-analysis of the deposited data

Results flagged for a closer look

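At 3 of the 30 loci shared by BM, MB and Mo17, the reciprocal hybrids lay on opposite sides of Mo17 by at least 0.5 at a time point. At GRMZM2G075528 at ZT9, BM was above Mo17 by 0.59 and MB differed from it by -0.87, with values of 2.57 in BM and 1.11 in MB, against 1.98 in Mo17. At GRMZM2G006107 at ZT3, BM was above Mo17 by 0.62 and MB differed from it by -0.66, with 2.28 in BM and 1.01 in MB, against 1.66 in Mo17. At GRMZM2G091558 at ZT9, BM differed from Mo17 by -0.67 and MB was above it by 0.67, with 1.26 in BM and 2.60 in MB, against 1.93 in Mo17. These differences were not tested, and the loci were picked by their size. The same count was not made over all loci that BM, MB and Mo17 share. The number therefore cannot be read as a trait of the kept genes.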

How the results depend on the processing

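For 24 summary values, 151 values under alternatives were computed, of which 120 stayed within 1.5 times of a count or within the 95% interval of a share or median. Centring each list on its median gave a ZT3 share of 45.8% in BM (on the mean, 49.4%), against 66.9% as deposited, and Mo17 shares at ZT9 of 35.4% at genes kept in both, 35.6% in BM only, 31.3% in MB only and 40.6% at those not kept (on the mean, 39.6%, 43.2%, 38.8% and 43.8%). Median differences, hybrid minus Mo17, became 0.046 (BM at ZT3), 0.021 (BM at ZT9), 0.12 (BM at ZT15) and 0.069 (MB at ZT9) on the median, and 0.15 (BM at ZT3), 0.12 (BM at ZT15) and 0.021 (MB at ZT9) on the mean, while BM at ZT9 on the mean and MB at ZT15 under both stayed negative. Without ZT15 the ZT3 share in Mo17 was 32.6%, and the Mo17 shares at ZT9 were 75%, 64.4%, 67.2% and 61.9% in the same order of classes. With only peaks that reached 2, 148 genes met the rule (54 of the 233 and 94 others), 65 in BM only and 34 in MB only, the ZT3 share in MB was 66.3%, the ZT9 share in Mo17 was 63.1% in BM only and 60.3% at those not kept, and the BM differences were 0.22, -0.44 and -0.56 at ZT3, ZT9 and ZT15. The causes were not tested. Leaving out the 3 genes with a B73 peak over the gene, chosen after seeing the data, took none of the values computed past these limits. No paired analysis was possible because each list holds a single value per time point, and no replicate could be left out for the same reason. The depth behind a peak is unknown.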

Other observations

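A CCA1-like MYB gene, GRMZM2G175265, had a peak in the Mo17 list only and so was not kept in a hybrid. The peak at chr10:78343782-78344336, inside the gene, had 1.34 at ZT3, -0.09 at ZT9 and -1.05 at ZT15.

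The MB peaks farthest below Mo17 at ZT3, picked after the values were seen, belonged to GRMZM2G039826, with 0.61 in MB against 2.41 in Mo17, and GRMZM2G057576, with -0.08 in MB against 1.72 in Mo17.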
